A study of Mus musculus with 22 samples.

Results

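DNA methylation of the clustered protocadherin genes on mouse chromosome 18 was compared between mammary tumors and normal mammary glands. The members were CpG positions covered in all 22 samples and lying in the first exon, or within 2 kb of the transcription start site (TSS), of a Pcdha, Pcdhb or Pcdhg gene of the RefSeq annotation on mm10. They numbered 500 of the 1140618 positions covered in all samples, with 120 at the alpha genes, 76 at the beta genes and 304 at the gamma genes. Of the 58 genes, 40 held at least 1 position and 36 held at least 3, the minimum for a promoter to be tested. These were 8 of 14 alpha genes, 7 of 22 beta genes and 21 of 22 gamma genes.

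The clustered protocadherins are cadherin-like adhesion molecules of the cell surface, known best from neurons, where combinations of isoforms give each cell an identity of its own. In the alpha and gamma subclusters each variable first exon has its own promoter and is spliced to constant exons shared by the subcluster, whereas the beta genes are single exons with no shared constant part. Promoter choice is thought to be stochastic and is tied to DNA methylation and to looping by CTCF and cohesin, while the C-type genes at the ends of the alpha and gamma arrays are regulated separately from the variable genes. The annotation showed this layout, with 4 exons in each alpha and gamma gene described below and 1 exon in each beta gene. It placed the cluster between chr18:36930285, the start of Pcdha1, and chr18:37841873, the end of Pcdhgc5.

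Methylation was measured by enhanced reduced representation bisulfite sequencing (ERRBS), which reads CpG-rich fragments made with the restriction enzyme MspI (recognition sequence CCGG). The PyMT group held F1 females of the FVB/N background, heterozygous for the polyoma middle T antigen under the MMTV promoter, which is active in mammary epithelium and gives spontaneous tumors. They were taken with hyperplasia at week 6 (n = 2), adenoma/MIN (mammary intraepithelial neoplasia) at week 8 (n = 3), early carcinoma at week 10 (n = 3) and late carcinoma at week 12 (n = 2), and the controls were FVB females of the same ages (n = 3 at each). The study took 3 PyMT mice at each age and removed 2 outlier samples after looking at coverage, methylation percentage and principal components. In the samples used here, PyMT replicate 3 of week 6 and replicate 2 of week 12 were missing. The spread and overlap of PyMT samples given below are therefore those of the samples kept. Tissue was bulk, so a change in the make-up of cell types and a change within one cell type cannot be told apart.

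Each sample had 1314077 to 1435757 positions of its own. Over these the mean coverage was 60.2 to 79.2 reads, against 57.7 to 83.5 reads over the protocadherin positions, and the mean methylation level was 26.0% to 28.6% in PyMT samples and 27.2% to 29.2% in FVB samples. Adenoma/MIN replicate 1 stood apart from the other 21 samples, with a mean of 4.27% over 405 X-linked promoters that lay at 24.8% to 31.8% in the others. The study describes its PyMT mice as females, and this level sets the sample apart from the others so described, for a reason that was not tested. Over 2097 promoters at intermediate level its r with the mean of the other PyMT samples was 0.896, against 0.947 to 0.980 for the other samples and their own strain. These promoters include X-linked ones, so this lower value is not independent of the X-linked difference. Subcluster differences and counts of calls are also given without this sample. Of the promoters of mammary cell type markers, 6 of 6 luminal genes were less methylated in PyMT samples, with a list mean of 3.73% to 6.25% against 10.5% to 16.0% in FVB, and the 1 basal gene measured, Krt5, was also lower, at 54.9% to 64.4% against 56.1% to 76.6%. The adipocyte list (3 measured, 1 higher and 1 lower) lay at 39.4% to 49.3% against 45.9% to 52.2%, the leukocyte list (2 measured, 1 higher and 1 lower) at 26.4% to 39.7% against 35.2% to 40.2%, and the endothelial list (3 measured, 1 higher and 2 lower) at 31.1% to 37.0% against 31.1% to 38.8%. The part of these differences in the protocadherin results was not tested.

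Levels in normal glands differed among the subclusters and within them. Averaged over their positions, FVB samples had 31.1% ± 0.881 (SD, n = 12) at the alpha genes, 59.1% ± 1.72 at the beta genes and 36.6% ± 1.09 at the gamma genes. The C-type genes Pcdhac2 and Pcdhac1 held 49 and 28 of the 120 alpha positions, so the alpha mean lay below every variable alpha promoter tested. By promoter, the median FVB level was 61.8% at the variable alpha genes, 58.8% at the beta genes and 36.1% at the variable gamma genes. The positions behind these medians lay at unlike distances from the TSS. The variable alpha genes had 3 positions in the first 500 bp and 29 between 2000 and 3000 bp. The variable gamma genes had 73 and 6 there. Differences in level between subclusters therefore cannot be told apart from differences in where positions were covered. The variable alpha promoters lay between 41.5% and 67.8%, the 7 beta promoters between 51.9% and 76.1%, and the 18 variable gamma promoters between 18.8% for Pcdhgb7 and 90.4% for Pcdhga7. The C-type promoters spread over nearly the whole scale. Pcdhgc4 stood at 0.397%, Pcdhgc3 at 0.823%, Pcdhac2 at 8.28% and Pcdhac1 at 26.4%. Pcdhgc5, the last gene of the array, stood at 71.8%, but its positions lay only 1977 to 2581 bp downstream of the TSS. Those of Pcdhgc3 lay from -131 to 1317 bp and those of Pcdhgc4 from 338 to 564 bp. The level near the start of Pcdhgc5 was therefore not measured.

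**Figure D1:**
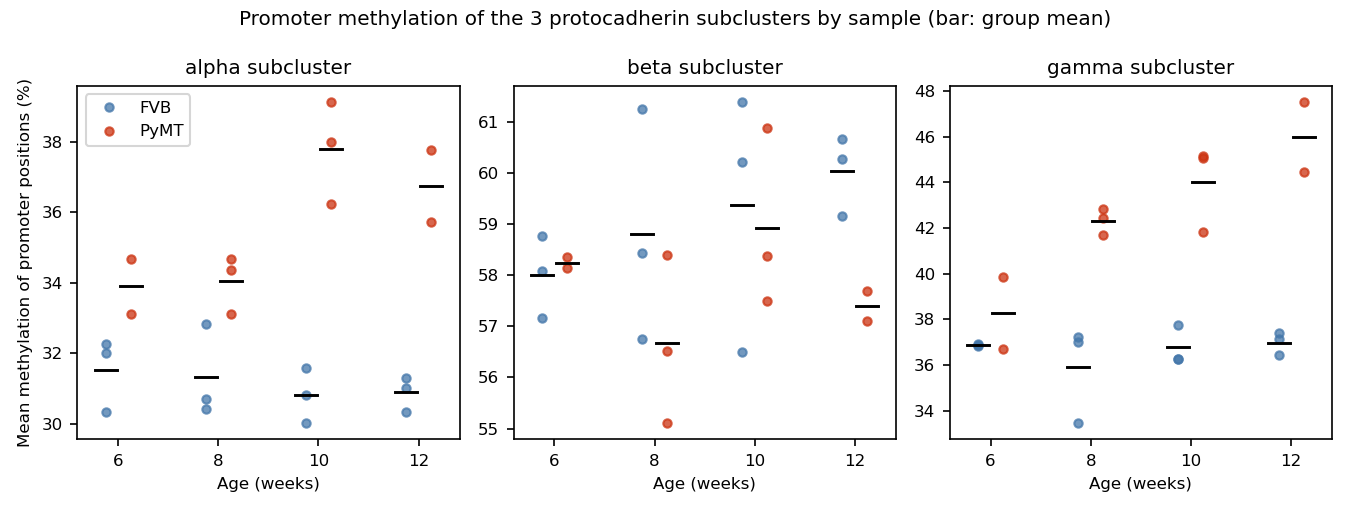
Mean methylation (%) over the positions of each subcluster (y axis, scaled to each panel) against age in weeks (x axis), 1 point per sample, with FVB in blue, PyMT in red and the group mean as a bar. PyMT samples lie above every FVB sample in the alpha panel at 33.1% or more, rise from week 6 to week 12 as groups in the gamma panel, and mix with FVB samples in the beta panel.

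The subclusters differed in direction between tumors and controls. Methylation was higher in PyMT samples at the alpha and gamma genes and not at the beta genes. At the alpha positions the PyMT samples ranged from 33.1% to 39.1% and the FVB samples from 30.02% to 32.8%, with no overlap, and the means were 35.7% ± 2.08 (SD, n = 10) and 31.1% ± 0.881 (n = 12). At the gamma positions PyMT ranged from 36.7% to 47.5% and FVB from 33.5% to 37.8%, with means of 42.8% ± 3.05 and 36.6% ± 1.09. Only a hyperplasia sample, at 36.7%, lay inside the FVB range. At the beta positions the ranges overlapped, at 55.1% to 60.9% in PyMT and 56.5% to 61.4% in FVB, and the mean was lower in PyMT by less than 1 SD of either group (57.8% ± 1.50 against 59.1% ± 1.72).

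Relative to the spread within groups, the alpha difference of 4.54 percentage points and the gamma difference of 6.12 points were each several times the pooled SD within groups (1.08 and 1.42 points), whereas the beta difference of -1.25 points was below it (1.64 points). The difference at the gamma genes exceeded that at the beta genes by 7.37 points and that at the alpha genes by 1.58 points, against pooled SDs of 1.91 and 1.18 points for these contrasts. Without adenoma/MIN replicate 1 the alpha, beta and gamma differences were 4.83, -1.31 and 6.24 points, and without the FVB week 8 sample that had the lowest gamma mean they were 4.50, -1.30 and 5.83 points. Leaving out the 5 C-type genes gave 6.47 points at the alpha genes and 7.68 points at the gamma genes.

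By stage, the gamma difference was 1.39 points at hyperplasia, 6.43 at adenoma/MIN, 7.24 at early carcinoma and 9.01 at late carcinoma. The alpha difference was 2.36 and 2.73 points at the premalignant stages and 6.98 and 5.85 points at the malignant stages. Late carcinoma samples stood at 47.5% and 44.5% at the gamma genes, where the week 12 controls stood at 36.4%, 37.1% and 37.4%. The beta difference was 0.240, -2.14, -0.442 and -2.63 points from week 6 to week 12. Whether the courses of the subclusters differed was not tested. Among the FVB samples the gamma mean stayed between 36.3% and 37.8%, apart from 1 week 8 sample at 33.5%.

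Promoters were then tested one by one, by limma on the mean methylation level of each of 16419 promoters with Benjamini-Hochberg adjustment over all of them, as the mean of the PyMT minus FVB differences at the 4 ages. Of the 36 protocadherin promoters, 20 were higher and 1 was lower in PyMT samples at an adjusted p below 0.05, where 17.1% of all promoters were higher and 17% were lower. Among the 2097 promoters that, like most of these genes, lay between 20% and 80% in FVB, 19.4% were higher and 34.9% lower. The higher promoters were 5 of 8 at the alpha genes, 0 of 7 at the beta genes and 15 of 21 at the gamma genes. At an unadjusted p below 0.05, 1 beta promoter passed, the same 1 that was lower after adjustment. The median difference was 6.42 points at the alpha genes, -1.57 at the beta genes and 4.55 at the gamma genes, against -0.01 over all promoters and -0.73 over those at intermediate level. Without adenoma/MIN replicate 1, 19 promoters were higher and 1 lower, Pcdha12 being lost.

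**Figure D2:**
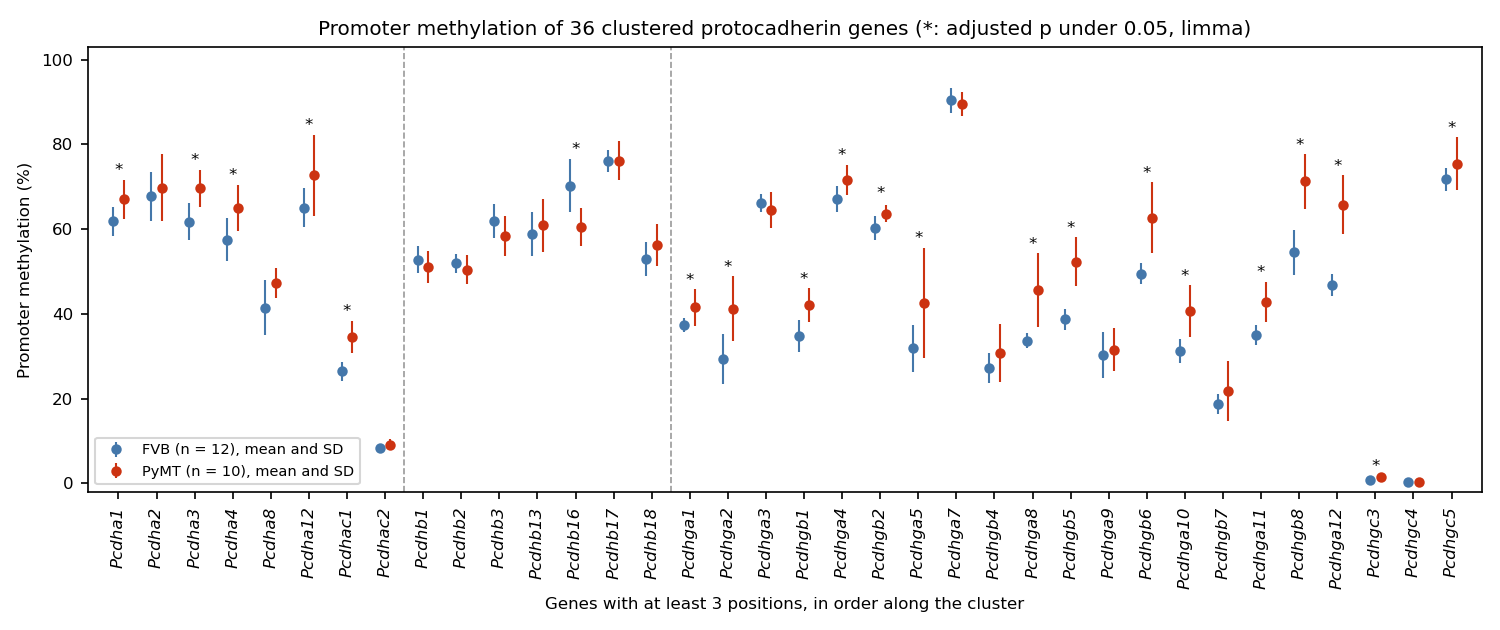
Promoter methylation (%) of the 36 genes with at least 3 positions (y axis) in their order along the cluster (x axis), with FVB in blue (n = 12) and PyMT in red (n = 10), as means with SD. Asterisks mark an adjusted p below 0.05 by limma, and dashed lines part the alpha, beta and gamma subclusters. The widest gaps stand near the end of the variable gamma genes, at Pcdhgb8 and Pcdhga12, and the only asterisk in the beta subcluster is at Pcdhb16, where PyMT was lower.

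Among the alpha genes, which encode adhesion molecules carrying the shared alpha cytoplasmic domain, differences at the 6 variable promoters tested ranged from 2.11 to 8.30 points. Pcdha1, the first gene of the array (first exon chr18:36930285-36932672), had 10 positions and a median of 62.3% in FVB and 66.8% in PyMT, with 5 of 10 PyMT samples above every FVB sample. Its difference was 5.42 points (SE 1.57, limma adjusted p = 0.0112). Pcdha3 had 12 positions and ranged from 55.6% to 70.9% in FVB, with a median of 62.0%, and from 62.6% to 74.5% in PyMT, with a median of 71.2% (difference 7.47 points, SE 1.67, limma adjusted p = 0.00157). All 3 early carcinoma samples, at 72.5%, 74.5% and 74.0%, lay above all FVB samples. Pcdha4, with 10 positions, ranged from 49.0% to 64.8% in FVB, with a median of 59.2%, and from 54.4% to 72.5% in PyMT, with a median of 65.4% (difference 7.30 points, SE 1.93, limma adjusted p = 0.00597).

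Pcdha12 had the largest alpha difference and the least certain. Over its 4 positions FVB ranged from 56.8% to 72.5%, with a median of 65.8%, and PyMT from 59.8% to 89.5%, with a median of 69.2%. The difference of 8.30 points (SE 3.06, limma adjusted p = 0.0446) rested on a few samples, as it was 2.44 points (limma adjusted p = 0.591) without the PyMT samples numbered replicate 1, and it was no longer called without adenoma/MIN replicate 1 (8.34 points, limma adjusted p = 0.0564). Those without a call were Pcdha2, with 4 positions (2.11 points, SE 2.93, limma adjusted p = 0.669), Pcdha8 with 3, and the C-type gene Pcdhac2. No position of Pcdha5, Pcdha6, Pcdha7, Pcdha9, Pcdha10 or Pcdha11 was covered in all samples.

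The C-type alpha genes parted from each other. Pcdhac1 (first exon chr18:37090136-37092571, 28 positions, of which 13 lay upstream of the TSS) was measured at 26.4% ± 2.26 (SD, n = 12) in FVB and 34.6% ± 3.88 (n = 10) in PyMT. FVB ranged from 21.8% to 30.3% and 9 of 10 PyMT samples lay above that range, the other being adenoma/MIN replicate 1 at 30.1%. The difference was 8.20 points (SE 0.989, limma adjusted p = 2.95e-06). It was 2.25, 6.62, 9.30 and 14.6 points from hyperplasia to late carcinoma. Pcdhac2, with 49 positions in its first exon, had 8.28% ± 0.85 in FVB and 9.10% ± 1.28 in PyMT, and its difference of 0.67 points (SE 0.444) did not pass the test (limma adjusted p = 0.299).

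The beta genes encode single-exon protocadherins without the constant cytoplasmic part. Only Pcdhb16 (chr18:37477768-37483038) passed the test, and it fell. Its 3 positions ranged from 59.9% to 82.4% in FVB, with a median of 69.9%, and from 55.1% to 67.5% in PyMT, with a median of 61.2%. All 10 PyMT samples lay below the FVB median. The difference was -9.59 points (SE 2.08, limma adjusted p = 0.0012). It was 1.96 points at hyperplasia and -16.8 points at late carcinoma, where the 2 samples stood at 60.3% and 55.6% and the week 12 controls at 75.9%, 75.5% and 73.0%.

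The other beta promoters did not pass the test. Pcdhb1, the first beta gene and the one with the most positions (21), had medians of 53.1% in FVB and 50.9% in PyMT (difference -1.57 points, SE 1.62, limma adjusted p = 0.54). Within 500 bp of its TSS, however, its difference was -6.50 points and passed (limma adjusted p = 0.0458). Pcdhb3 stood at a difference of -3.62 points (SE 1.99), Pcdhb18, the last beta gene tested, at 2.93 points (SE 2.10), Pcdhb13 at 1.99 points (SE 2.52) and Pcdhb17 at 0.23 points (SE 1.50), with limma adjusted p-values of 0.197 to 0.94. Pcdhb2, with 18 positions, also did not pass. The sign differed among these promoters. The beta array was also the least covered, as 11 of 22 genes had no position and Pcdhb12, Pcdhb15, Pcdhb20 and Pcdhb22 had 2 each, too few for the test.

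The gamma genes encode protocadherins of the A, B and C types with a shared gamma cytoplasmic domain. The A and B types, which alternate along the array, had 8 of 11 and 5 of 7 promoters higher. The differences ranged from -1.76 to 18.9 points (median 7.51) in the A type and from 3.06 to 16.6 points (median 7.15) in the B type, and the types were not tested against each other. The C-type genes gave the other 2 calls. The largest difference of the cluster was at Pcdhga12, the last variable gene (first exon chr18:37765580-37768540, 19 positions). FVB samples ranged from 42.0% to 50.9%, with a median of 46.7%, and PyMT samples from 54.4% to 74.9%, with a median of 66.1%. No PyMT sample overlapped an FVB sample. The difference was 18.9 points (SE 2.02, limma adjusted p = 7.41e-07). Hyperplasia samples stood at 57.4% and 59.6%, adenoma/MIN at 65.3%, 72.6% and 64.5%, early carcinoma at 74.9%, 54.4% and 66.9%, and late carcinoma at 71.3% and 71.1%. All were above the highest control, and the lowest was an early carcinoma sample.

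Its neighbor Pcdhgb8, which shares 5 positions with Pcdhga12, showed the next largest difference, 16.6 points (SE 2.31, limma adjusted p = 1.46e-05). Its 10 positions ranged from 45.0% to 61.8% in FVB, with a median of 54.6%, and from 58.9% to 79.0% in PyMT, with a median of 71.1%, and 9 of 10 PyMT samples lay above all FVB samples. With each shared position given to the nearer TSS, the differences were 15.1 points at Pcdhgb8 and 19.3 points at Pcdhga12. Pcdhgb5 (first exon chr18:37730971-37733559, 15 positions) ranged from 34.8% to 42.9% in FVB, with a median of 38.5%, and from 41.6% to 59.8% in PyMT, with a median of 51.1% (difference 13.6 points, SE 1.33, limma adjusted p = 2.74e-07). Pcdhgb6 (first exon chr18:37742094-37744658, 11 positions) ranged from 45.5% to 55.1% in FVB, with a median of 49.6%, and from 49.8% to 77.5% in PyMT, with a median of 62.1% (difference 13.5 points, SE 1.35, limma adjusted p = 3.19e-07). In both genes the only PyMT sample inside the FVB range was hyperplasia replicate 2.

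The remaining gamma promoters are named here after their values were seen. Pcdhga8, Pcdhga2, Pcdhga5, Pcdhga10, Pcdhga11 and Pcdhgb1 differed by 11.8, 11.7, 10.6, 9.16, 7.51 and 7.15 points and passed the test. Pcdhga4, the first gene Pcdhga1, and Pcdhgb2 differed by less, at 4.55, 4.21 and 3.19 points, and passed it as well. The call for Pcdhga1 (SE 1.48, limma adjusted p = 0.035) was lost in 4 of 6 fits that left out a replicate number, as were those for Pcdhga5, Pcdhgb2 and Pcdha12, and the calls for Pcdhga4, Pcdhgc5 and Pcdha1 were lost in 3 of 6. Pcdhga5 was spread widely, with late carcinoma samples at 64.6% and 40.2%. The promoters that did not pass were Pcdhgb4 at 3.37 points, Pcdhgb7 at 3.06, Pcdhga9 at 1.22, Pcdhga7 at -0.86 and Pcdhga3 at -1.76. Pcdhga7, at 90.4% in FVB, was the gamma promoter with the highest level.

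The C-type gamma genes differed in level and in size of difference, and also in the distance of their positions from the TSS. Pcdhgc3 (45 positions) ranged from 0.172% to 1.42% in FVB, with a median of 0.875%, and from 0.823% to 1.99% in PyMT, with a median of 1.54%. The difference of 0.65 points passed the test (SE 0.142, limma adjusted p = 0.00135), and 6 of 10 PyMT samples lay above all FVB samples. It lay near the floor, and its largest gains at single positions were 6.57, 5.74 and 4.04 points, with 2.57 points or less elsewhere. Pcdhgc4 (15 positions) had medians of 0.201% and 0.233%, and its difference of -0.13 points (SE 0.133) did not pass (limma adjusted p = 0.524). Pcdhgc5 ranged from 67.3% to 75.4% in FVB and from 64.3% to 82.8% in PyMT, with 7 of 10 PyMT samples above and both hyperplasia samples below all FVB samples (difference 3.17 points, SE 1.01, limma adjusted p = 0.0195). By stage the difference at Pcdhgc5 was -5.68, 6.67, 5.55 and 6.16 points. With a coverage minimum of 20 reads its overall difference was 1.41 points (limma adjusted p = 0.607).

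**Figure D3:**
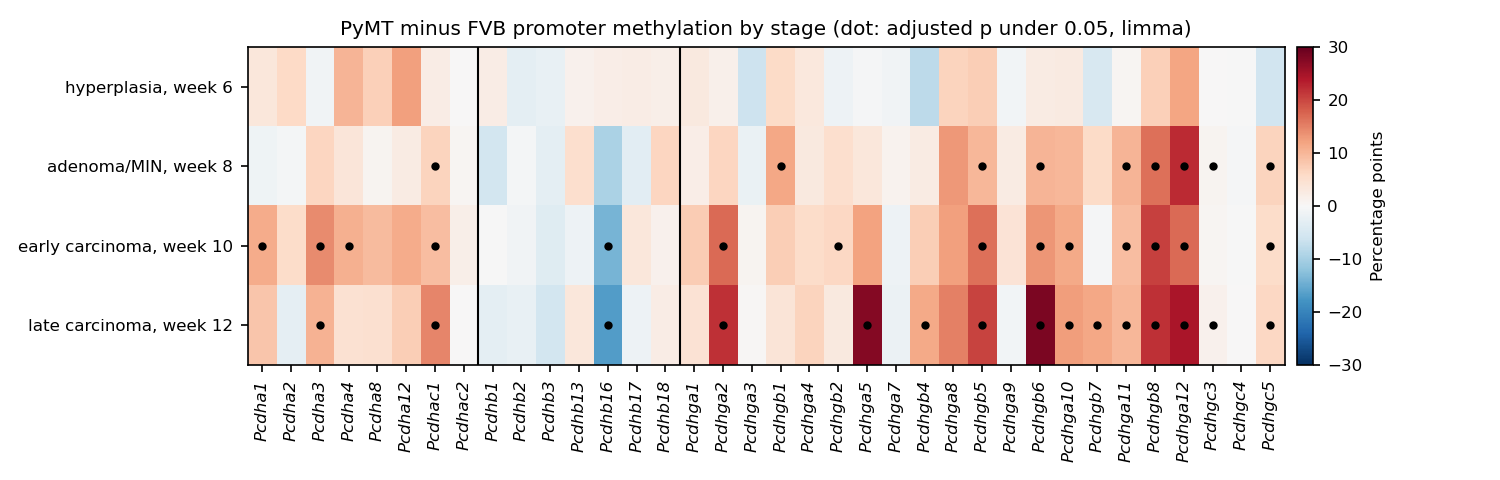
PyMT minus FVB promoter methylation in percentage points (color, red for higher in PyMT) for each stage and its age-matched controls (rows) and each of the 36 promoters in order (columns). Dots mark an adjusted p below 0.05 by limma. No dot stands in the hyperplasia row, and the dots of the later rows gather between Pcdhga8 and Pcdhga12.

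By stage, no promoter of the 36 passed the test at hyperplasia in either direction by limma, where 2.86% of all promoters were higher and 5.92% lower, and 5 passed at an unadjusted p below 0.05. At adenoma/MIN 9 were higher (8.78% of all promoters) and 0 lower (8.56%). At early carcinoma 13 were higher (11.7%) and 1 lower (10.7%), and at late carcinoma 14 were higher (12.6%) and 1 lower (9.51%). The 1 lower promoter was Pcdhb16 both times. Pcdhga12, Pcdhgb8, Pcdhgb5, Pcdhgb6, Pcdhga11, Pcdhac1 and Pcdhgc5 passed at each of these 3 stages. The largest single-stage difference was at Pcdhgb6 in late carcinoma, 28.2 points, where the 2 tumors stood at 77.5% and 74.8% and the week 12 controls at 45.5%, 50.8% and 47.6%. Of the alpha promoters, 1, 4 and 2 were higher at these stages, and of the gamma promoters 8, 9 and 12. With 2 PyMT samples at weeks 6 and 12 against 3 at weeks 8 and 10, the standard errors differ among the stages, and differences in these counts were not tested. Without FVB week 8 replicate 2 the adenoma/MIN calls fell from 9 to 3. The calls lost included Pcdhac1, Pcdhga11, Pcdhgb5, Pcdhgb8 and Pcdhgc5, so most of the promoters named for all 3 stages depended on that sample. Without adenoma/MIN replicate 1 the adenoma/MIN calls were 8, of which 7 were among the 9. Pcdhgc5 was then lost at adenoma/MIN and at late carcinoma.

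The malignant stages (weeks 10 and 12) were compared with the premalignant stages (weeks 6 and 8) within PyMT. Here 6 protocadherin promoters were higher and 0 lower at the malignant stages, against 5.68% of all promoters that were higher and 0.384% that were lower. They were Pcdhac1 and the gamma genes Pcdhgb4, Pcdhgb5, Pcdhgb6, Pcdhgb7 and Pcdhgc5. Pcdhgb6 rose by 12.4 points (SE 2.01, limma adjusted p = 0.000817), Pcdhgb5 by 9.80 points (SE 1.99, limma adjusted p = 0.00502), Pcdhgc5 by 9.64 points (SE 1.50, limma adjusted p = 0.000575) and Pcdhac1 by 6.07 points (SE 1.47, limma adjusted p = 0.0173). All 21 gamma promoters had a positive difference, though most did not pass. Between the same ages of FVB, 0 of 36 passed by limma, as did 0% of all promoters in either direction, and 3 did at an unadjusted p below 0.05. The difference of these 2 contrasts passed for Pcdhgb6 alone (14.4 points, SE 2.69, limma adjusted p = 0.0069), against 2.39% of all promoters, and 10 of 36 passed at an unadjusted p below 0.05. Without the PyMT samples numbered replicate 1, 3 promoters were higher at the malignant stages, and without adenoma/MIN replicate 1, 6 were, of which 5 were among those named.

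Single positions were tested as well. A position was called differentially methylated (DMC) at a difference of at least 10 points and q below 0.01 by logistic regression on reads. This counts reads and not animals, so correction for the spread between animals left fewer calls, 6, 13, 43 and 70 hyper-DMCs from hyperplasia to late carcinoma, where 0.883%, 1.22%, 2.39% and 2.53% of all positions were called. Without that correction, hyper-DMCs numbered 42, 72, 100 and 115 of the 500 protocadherin positions, where 2.62%, 3.2%, 4.39% and 4.44% of all positions were called. Hypo-DMCs numbered 14, 13, 15 and 19, where 6.01%, 7.1%, 8.42% and 8.53% were called. Among positions at the promoters of any gene, 0.898%, 1.17%, 1.94% and 2.31% were hyper-DMCs and 1.14%, 1.38%, 1.48% and 1.36% hypo-DMCs. Without adenoma/MIN replicate 1, the hyper-DMCs of week 8 numbered 69, and those of hyperplasia numbered 17 without its replicate 1.

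The gamma genes held 25, 62, 70 and 87 of the hyper-DMCs and the alpha genes 11, 6, 24 and 22, or 9.17%, 5%, 20% and 18.3% of the alpha positions. The beta genes held 6, 4, 6 and 6 hyper-DMCs, or 7.89%, 5.26%, 7.89% and 7.89% of the beta positions, so that alpha and beta shares were close at the premalignant stages. They also held 3, 8, 10 and 14 hypo-DMCs, the reverse balance from week 8 on. Hypermethylation was called at all 4 stages at 7 positions (1.05% of all positions), and hypomethylation at 0 (3.27%). These 7 belonged to Pcdhgb5, Pcdhga12, Pcdhgb8, Pcdhga8 and Pcdhga11. At Pcdhgb6 the hyper-DMCs rose from 0 of 11 positions at hyperplasia to 5, 7 and 11, so that all its positions were called in late carcinoma. At Pcdhac1, 13 of 28 positions were called in late carcinoma, and at Pcdhgc4 none of 15 was at any stage.

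Counting direction alone, with no threshold, 75.8% of alpha, 43.4% of beta and 75.7% of gamma positions were higher in PyMT, against 39.0% of all positions. Positions without a difference count as not higher, so the rest of these shares are not all losses. The median difference was 2.56 points at alpha, -0.913 at beta and 4.65 at gamma positions, against 0 over all positions. A gain of at least 10 points over all samples was measured at 27 of 120 alpha, 0 of 76 beta and 88 of 304 gamma positions. A loss of that size was measured at 0, 9 and 5 of them. Over all 1140618 positions, 49903 gained and 105437 lost that much.

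**Figure D4:**
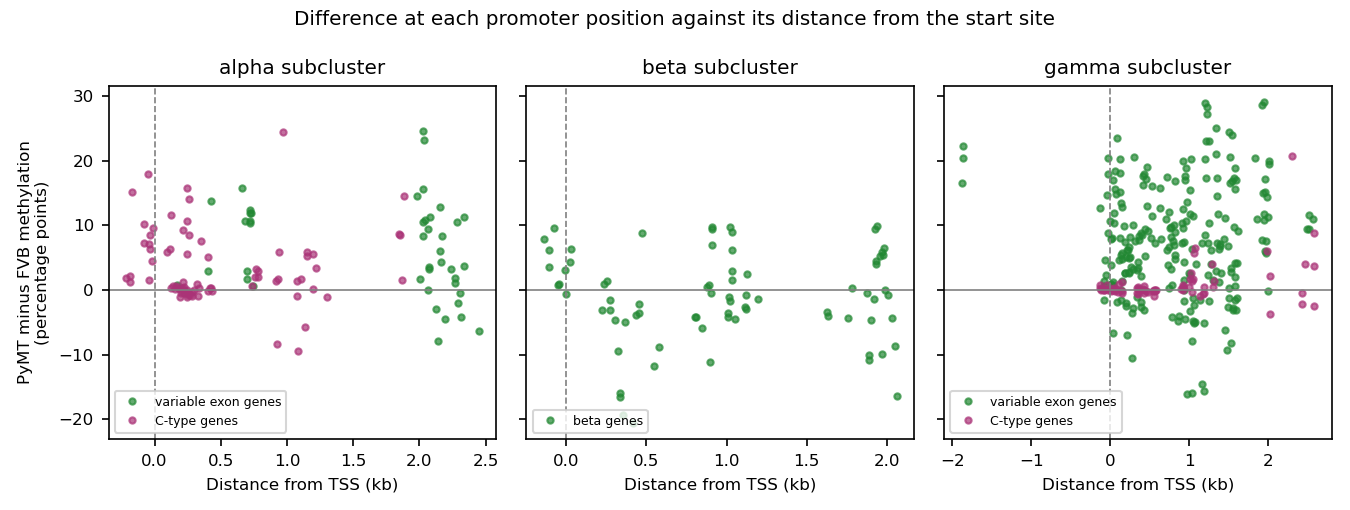
PyMT minus FVB methylation in percentage points (y axis) of each of the 500 positions against its distance from the TSS in kb (x axis; positive values are downstream, into the first exon), in 1 panel per subcluster. C-type genes are in purple and all others in green. Gains at the variable gamma genes run the length of the first exon, many positions of the C-type genes lie at 0, and beta positions lie on both sides of 0.

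Most positions lay in the first exon, which in these genes holds most of the coding sequence, and 46, counted by gene, lay upstream of a TSS. Gains were therefore measured chiefly in exon sequence downstream of the start. At the variable gamma genes the mean level in FVB rose from 26.2% in the first 500 bp (73 positions) to 64.7% between 1000 and 1500 bp (55 positions). The gain was 6.62 points in the first of these stretches and 6.07 points in the second, and 10.2 points between 1500 and 2000 bp (39 positions). The 14 positions upstream of variable gamma genes stood at 22.8% in FVB and 33.6% in PyMT. At the beta genes the first 500 bp went the other way, from 34.2% to 29.4% (18 positions), and the stretch between 1000 and 1500 bp stood at 79.8% and 80.4%. Restricted to 500 bp around each TSS, where only 9 of the 21 called promoters kept 3 positions, 6 of these were still called, and Pcdhgb5, at 5.42 points, was not (limma adjusted p = 0.166).

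Sequence features were set beside the differences. The observed to expected ratio of CpG in the first exon had a median of 0.660 at the alpha genes, 0.417 at the beta genes and 0.552 at the gamma genes. Over the 36 promoters this ratio correlated with the PyMT minus FVB difference (Pearson r = 0.555, Spearman rho = 0.528), and over the 18 variable gamma promoters r was 0.529. These are descriptions across promoters that share libraries and are not independent. The FVB level (r = -0.183), the mean coverage (r = 0.028) and the number of positions (r = -0.015) varied little with the difference over the 36. Over the 31 promoters that are not C-type the FVB level gave r = -0.419, and over the 18 variable gamma promoters coverage gave r = 0.403. The genes without a covered position had a median of 4 CCGG sites in the region, where those with one had 8.

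**Figure D5:**
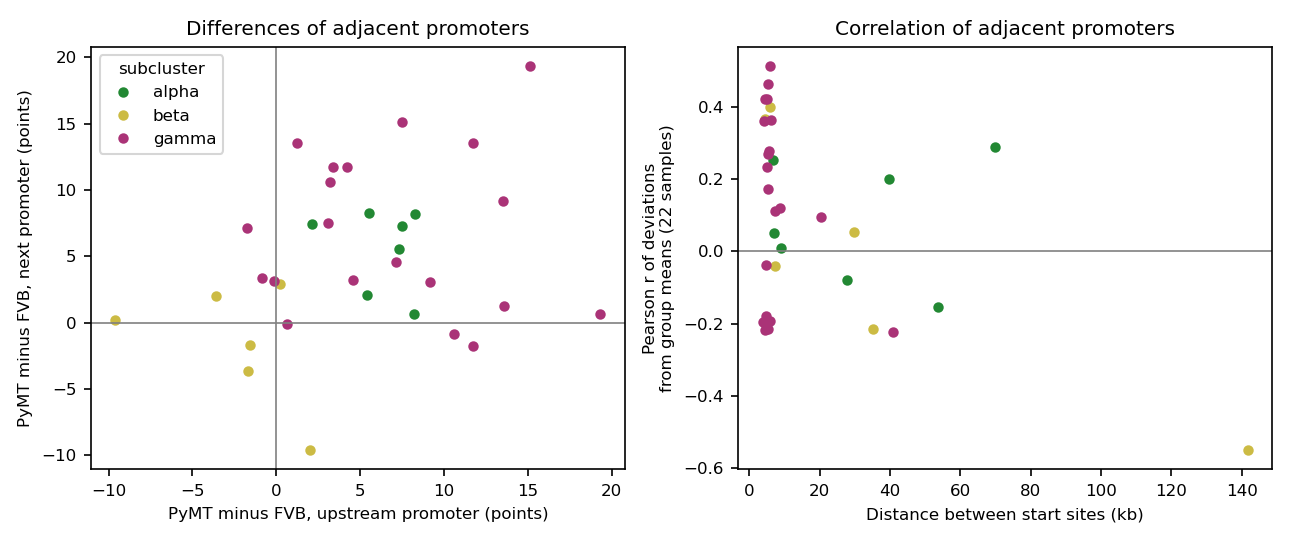
Left, PyMT minus FVB difference in percentage points of each promoter (x axis) and of the next tested promoter of its subcluster (y axis). Right, Pearson r of their deviations from group means over 22 samples (y axis) against the distance of their start sites in kb (x axis), with 33 pairs colored by subcluster. All 7 alpha pairs stand in the upper right of the left panel, and the points of the right panel lie on both sides of 0 at short distances.

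Whether adjacent promoters changed together was examined with each position given to its nearest TSS. The 2 promoters of a pair moved in the same direction in 7 of 7 alpha pairs, 3 of 6 beta pairs and 14 of 20 gamma pairs. Pairs of the same subcluster that were not adjacent did so in 21 of 21, 6 of 15 and 142 of 190 cases, so adjacent gamma pairs shared direction in 70.0% and other gamma pairs in 74.7%. Adjacent gamma promoters also differed in size of change about as much as others, by a median of 6.76 points against 5.99 points. Pcdhgb5 and Pcdhgb6, at 13.6 and 13.5 points, flanked Pcdhga9 at 1.22 points, and Pcdhga2, at 11.7 points, was followed by Pcdhga3 at -1.76 points.

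After the group means were removed, deviations of adjacent promoters from their group means correlated weakly over the 22 samples. The median r was 0.051 in alpha pairs, 0.006 in beta pairs and 0.147 in gamma pairs, against 0.025, -0.003 and 0.145 for pairs that were not adjacent. Over all pairs the median r was 0.180 for start sites under 10 kb apart (29 pairs) and 0.123 for 10 to 30 kb (51 pairs). It was 0.128 for 30 to 100 kb (132 pairs), 0.016 for 100 to 300 kb (125 pairs) and 0.076 beyond (293 pairs), and the shares of pairs with the same direction were 79.3%, 76.5%, 77.3%, 60% and 64.2%. Elsewhere in the genome, 176 pairs of adjacent promoters at intermediate level, with start sites 4 to 30 kb apart, had a median r of 0.140. The adjacent pairs of the cluster were not limited to that level or distance. Among the 33 adjacent pairs the highest value was 0.513, between Pcdhgb5 and Pcdhga9, and the lowest -0.550, between Pcdhb3 and Pcdhb13, which lie 141718 bp apart with untested genes between them.

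The gain was measured at promoters and first exons and not over the region at large. The 68 shared positions in introns and between the genes of the cluster stood at 63.9% to 71.8% in PyMT and 72.6% to 76.5% in FVB, a difference of -6.65 points without overlap. The 45 positions at the promoter of Taf7, a general transcription factor gene between the beta and gamma arrays, stood at 0.39% and 0.258%. Of 9 flanking genes tested, 1 was higher (Arap3, 1.34 points) and 0 were lower. Of 10 non-clustered protocadherins tested, 5 were higher, among them Pcdh17 (5.83 points, SE 0.530, limma adjusted p = 1.08e-07), and Pcdh1 was lower by 0.32 points. Of 14 regulators of the cluster, such as Ctcf and the cohesin gene Rad21, 1 was higher (Dnmt3b, a DNA methyltransferase gene, 0.53 points) and 1 was lower (Trim28, -0.15 points), at promoters with a mean of 3.42% or less in PyMT.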

How the data were processed

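Mammary DNA from 10 PyMT and 12 FVB samples was profiled by ERRBS. The authors aligned reads to mm10 with Bismark (version not given in the sources used here) and deposited, for each sample, CpG positions with the read count (coverage) and the percent of methylated and unmethylated reads, limited to at least 10 reads. No position under 10 reads was used. Methylated reads were taken as coverage times percent, and strands were kept apart. TSS and first exons came from curated RefSeq transcripts on GRCm38 (26089 genes). Of the chromosome 18 positions, 33452 of 33452 fell on a reference C, or on a G for the reverse strand. The adjacent base was not checked. The variable exons resemble each other, so reads that map to several members may be missing or misplaced.

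Promoter means were fitted for all genes with at least 3 positions by limma 3.58.1 (R 4.3.3) over 8 groups with a mean-variance trend. DMCs took their thresholds (10 points, q below 0.01) from the study, which used methylKit. Here they were called by logistic likelihood ratio tests on reads with Benjamini-Hochberg adjustment, in Python 3.11.15 with NumPy 2.4.6 and SciPy 1.17.1. The permutation test planned for subcluster means is not reported, because members and lists were chosen with earlier results of these data known. Named in full were, per subcluster, the 4 largest and 2 smallest differences, the C-type genes and the first and last tested gene, and other members were named after their values were seen. Alternatives changed coverage, strands, window, weighting, scale, replicate block and samples. All tests were tested on simulated data. Each sample came from a separate animal per the study's methods. Precision was set by 3 or fewer samples a group. No samples were pooled, and 20 pairs of samples of the same group differed by more than sampling noise.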

Additional observations from a re-analysis of the deposited data

Results flagged for a closer look

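The PyMT minus FVB difference at Pcdhgb6 was larger at the malignant than at the premalignant stages by 14.4 points (SE 2.69, limma adjusted p = 0.0069 over 16419 promoters). Only this 1 of 36 protocadherin promoters passed that test, where 2.39% of all promoters passed as higher and 0.128% as lower. The PyMT minus FVB difference at Pcdhgb6 was 2.52 points at hyperplasia, 10.1 at adenoma/MIN, 13.2 at early carcinoma and 28.2 at late carcinoma. The call was lost without the FVB samples numbered replicate 1 or replicate 3.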

How the results depend on the processing

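The alpha and gamma gains and the excess of both over the beta genes kept their sign in every alternative run. Averaging over promoters gave 5.64 points at the alpha genes, and dropping the C-type genes, chosen after seeing the data, gave 6.47 (alpha), 7.68 (gamma) and 7.72 (alpha minus beta). Within 500 bp of a TSS, where fewer genes are tested, 1 alpha and 5 gamma promoters were higher, 1 was higher in malignant PyMT, 0 had a larger effect at the malignant stages, and Pcdhac2 stood at -0.088 points. With first exons only, 3 were higher in malignant PyMT. Promoters with a larger malignant effect numbered 3 without a trend, 2 with strands merged, which put Pcdhb17 at -0.44 points, and 2 without FVB week 8 replicate 2 (2.27% of all promoters). At 25 points hyper-DMCs numbered 9, 21, 24 and 47 and hypo-DMCs 3, 0, 2 and 7. With overdispersion they numbered 6, 13, 43 and 70, and 2, 3, 2 and 9, where 0.883%, 1.22%, 2.39% and 2.53% of all positions were hyper-DMCs. For the other settings of this section the share over all promoters or positions is not given. Those counts describe stability and cannot be set against a background. Apart from windows and thresholds, the cause was not tested.

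Leaving out the samples of 1 replicate number in 1 strain gave 3 to 5 higher alpha promoters, 3 to 6 higher in malignant PyMT and 0 to 4 with a larger malignant effect. Hyper-DMCs ranged from 17 to 59 at hyperplasia and 70 to 111 at late carcinoma, and hypo-DMCs from 8 to 23 at hyperplasia and 6 to 19 at adenoma/MIN. Differences that did not pass the test ranged from -0.38 to 4.70 points (Pcdha2), -0.60 to 4.19 (Pcdhb13) and -0.34 to 1.24 (Pcdhb17). Of the 21 called promoters, 15 to 19 were called in each of these fits.

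Replicate numbers did not pair the samples, as deviations of same-numbered samples correlated at -0.142 to 0.085 in 10 pairs. With the replicate block, 4 alpha and 15 gamma promoters were higher, the call of Pcdha12 being lost. The depth of 40.5 to 107 reads a promoter, with 3 or fewer samples a group, limits what can be seen at single stages.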
